A study of Homo sapiens and Mus musculus with 69 samples.

Results

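COR-L88 is an established small cell lung cancer (SCLC) line of the neuroendocrine (NE) type. The comparison described here sets 3 RNA-Seq libraries of COR-L88 that received TAS1440 plus GSI against 3 libraries of the same line with DMSO, the solvent, and these are 6 of the 69 libraries of the series. TAS1440 is a reversible inhibitor of the histone demethylase LSD1 and was given at 100 nM. The GSI is the gamma-secretase inhibitor BMS-708163, given at 2 μM, and the treatments lasted 28 days. No genetic change is labelled for these 6 libraries. The table holds 20516 genes, and 13134 of them were tested, namely those that reached 1 on the log2 scale in 3 or more of the 15 COR-L88 libraries. Beside them stand 3 libraries with TAS1440 alone, 3 of *STING1* KO cells (clones made by CRISPR) with DMSO and 3 of *STING1* KO cells with TAS1440. The question put by the combination is which part of the response to LSD1 inhibition needs gamma-secretase, which cleaves Notch. The paper states that such inhibitors also act on other membrane proteins, so effects through Notch cannot be told apart here from other effects of the GSI. No group with the GSI alone was analysed here, so the effect of the GSI without TAS1440 cannot be told apart from that of the combination.

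Values are log2(RPKM + 1), as the authors deposited them, and differences are log2 fold changes on this scale, which understates the change of genes near 0. Read counts are not in the table, so depth was only known in relative terms. From the steps between low values, the effective size of the 15 libraries ranged from 0.807 to 1.28 times their median. It was 0.879 to 1.28 with DMSO and 1.17 to 1.28 with TAS1440 plus GSI. Libraries of a group correlated with each other at 0.979 to 0.994 (Pearson's r across genes, which are not independent replicates), and no 2 of them were identical. The labels do not say whether the 3 libraries of a group came from separate cultures, so *P* values measure the spread between libraries, which may be technical. For each gene that spread was 1 estimate from all 5 COR-L88 groups, the *STING1* KO groups included. A KO group with a wide spread thus widens it. For *NOTCH1* the SD was 0.07 with DMSO, 0.02 with TAS1440 plus GSI and 1.13 in KO cells with TAS1440. The marker genes of NE SCLC were present in the DMSO libraries. *INSM1* was at 6.91 ± 0.18, *NCAM1* at 5.16 ± 0.10 and *SYP* at 4.95 ± 0.13 (mean ± SD, n = 3). *NEUROD1*, which marks an NE subtype, was also present, at 5.69 ± 0.11. Of 19 markers of other cell types in the table, 7 were listed at 0 in all 6 libraries. Among these were *PTPRC* and *CD3E* of blood cells, *PDGFRB* of stroma and *SFTPC* of the alveolus. Another 6 had enough signal in the COR-L88 libraries to be tested: *CD14*, *CD68*, *POU2F3*, *AVIL*, *TRPM5* and *FOXJ1*. The values summed over the 19 were 10.9 to 13.2 with DMSO and 14.6 to 15.7 with TAS1440 plus GSI.

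LSD1 removes methyl groups from histone H3 and works within the CoREST complex, to which DNA-binding factors such as REST, INSM1 and GFI1 recruit it. Notch receptors are cut by an ADAM sheddase and then by gamma-secretase, which frees the intracellular domain to enter the nucleus, bind RBPJ and switch on target genes such as *HES1* and *HEY1*. In NE SCLC, Notch is mostly silent, its activation opposes the NE program, and REST represses neuronal genes in cells that lose the NE program. A gamma-secretase inhibitor blocks release of the intracellular domain.

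The DNA elements read by RBPJ and REST are shown first, because the study used the GSI to block Notch signaling. They are shown with the promoters of *HES1* and of genes of NE secretion described below. Sequences are RefSeq promoter windows of GRCh38.p14, each reaching from 250 bases before to 50 bases after the start of the gene. The core of the RBPJ element, GTGGGAA on either strand, was present in 6.28% of 27305 such windows and in 5.77% of those of tested genes. It was found in 4.13% of the windows of genes lower with TAS1440 plus GSI than with DMSO and in 5.14% of those of higher genes, shares below that of all tested genes. For the targets of Notch, 9 of 11 list members had a window and 5 of these held it (*HES1*, *HES4*, *HES5*, *HEY2* and *HEYL*). The stretches of *HES1* (chr3:194136028-194136087, plus strand) and *HES4* (chr1:1000148-1000207, minus strand) that hold it are shown with the core in capitals, 85 and 77 bases before the start of the gene.
HES1: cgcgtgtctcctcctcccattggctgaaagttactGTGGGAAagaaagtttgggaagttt
HES4: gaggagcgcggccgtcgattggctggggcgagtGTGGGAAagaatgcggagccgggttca
The left part of the REST element, TTCAGCACC on either strand, was present in 0.403% of all windows and in 0.345% of the 9845 windows of tested genes. It was found in 9 of the 315 windows of lower genes (2.86%) and in 0 of the 525 windows of higher genes, a description without a test. Of these, *SCG3* (chr15:51681507-51681536, plus strand), *UNC13A* (chr19:17688336-17688365, minus strand) and *SYN1* (chrX:47620068-47620097, minus strand) are shown, with the left part and the GGACAG of the right part in capitals. *UNC13A* carries both in reverse.
SCG3: gaacTTCAGCACCcacagggcGGACAGcgc
UNC13A: gcgCTGTCCgcgcccccGGTGCTGAAccaa
SYN1: tgccagcTTCAGCACCgcGGACAGtgcctt
The RBPJ and REST letters do not overlap in these stretches, and such a match is a description of letters and not evidence that the factor binds there.

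Against DMSO, TAS1440 plus GSI left cells in which *NOTCH1* and *REST* were high, *HES1* was low, several genes of the NE secretory apparatus were near 0, and several NE regulators such as *MYCL* and *HES6* were still abundant. Of the 13134 genes, 738 were higher (5.62%) and 447 lower (3.4%), 9.02% in all, when a gene had to have a limma adjusted *P* under 0.05 and to differ by 1 or more on the log2 scale, which is what "called" and verbs of change refer to throughout. A further 2028 genes had an adjusted *P* under 0.05 with a smaller fold change. The median log2 fold change of all genes was -0.01. In bulk RNA, fewer cells of a type and less RNA per cell cannot be told apart. TAS1440 alone, measured against the same 3 DMSO libraries, had 2011 genes higher (15.3%) and 980 lower (7.46%), 22.8% of all genes together. The direct comparison of TAS1440 plus GSI with TAS1440 alone had 568 genes higher (4.32%) and 1367 lower (10.4%).

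**Figure D1:**
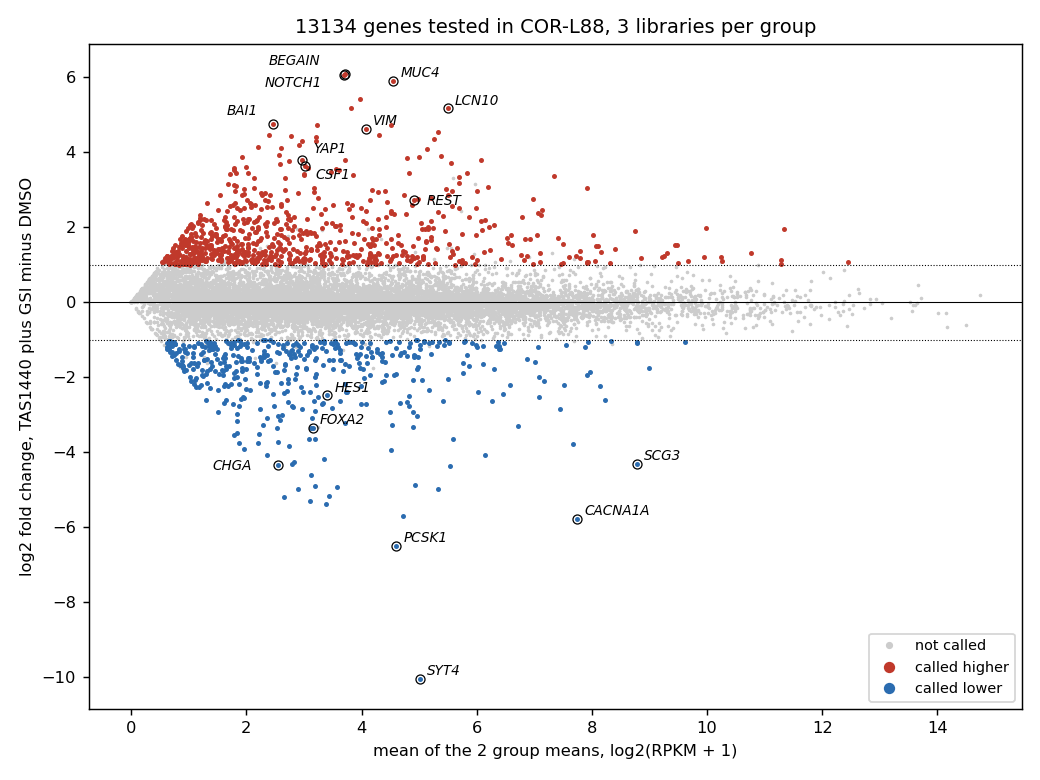
Log2 fold change of TAS1440 plus GSI minus DMSO (vertical axis) against the mean of both group means in log2(RPKM + 1) (horizontal axis), with 1 point for each of 13134 genes. Red points are the 738 genes called higher and blue points the 447 called lower; dotted lines mark a log2 fold change of 1 and -1, ringed points are the genes named beside them, and *SYT4* lies furthest down.

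The receptor genes *NOTCH1* and *NOTCH2* rose while *HES1*, a classic target of the pathway, fell. *NOTCH3* was not called and *NOTCH4* was below the filter. *NOTCH1* (chromosome 9, 139388885 to 139440500 of GRCh37) was at 0.61, 0.74 and 0.63 with DMSO and at 6.73, 6.71 and 6.75 with TAS1440 plus GSI. With TAS1440 alone it was at 1.99, 2.79 and 2.26, so all 3 groups were apart and the combination was highest. The log2 fold change was 6.07 against DMSO (standard error 0.39, limma adjusted *P* = 9.71e-08) and 4.39 against TAS1440 alone (limma adjusted *P* = 3.23e-06). *NOTCH2* (chromosome 1, 120454176 to 120643366) went from 2.04, 2.04 and 1.65 to 4.56, 4.33 and 4.35, a rise of 2.50 (limma adjusted *P* = 1.37e-06). It did not differ from TAS1440 alone beyond the spread, with a log2 fold change of 0.11 (limma adjusted *P* = 0.698). *NOTCH3* had another order of levels. It was at 0.59, 0.77 and 0.70 with DMSO, at 1.14, 1.01 and 0.97 with TAS1440 plus GSI and at 2.71, 3.37 and 3.15 with TAS1440 alone. The log2 fold change of *NOTCH3* against DMSO was 0.36 (95% CI, -0.14 to 0.85; limma adjusted *P* = 0.295), and against TAS1440 alone it was -2.03 (limma adjusted *P* = 1.55e-05).

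*HES1* (chromosome 3, 193853937 to 193856521), a transcriptional repressor whose promoter holds the RBPJ core shown above, was at 4.87, 4.44 and 4.63 with DMSO and at 1.97, 2.30 and 2.23 with TAS1440 plus GSI. It fell by 2.48 on the log2 scale (standard error 0.24, limma adjusted *P* = 5.09e-06). With TAS1440 alone it stood at 4.93, 4.18 and 4.47 and overlapped with DMSO. Against TAS1440 alone the log2 fold change of *HES1* was -2.36 (limma adjusted *P* = 7.9e-06). *HEY1*, another repressor of this family, went from 3.86, 3.59 and 3.85 to 2.34, 2.15 and 2.26, a log2 fold change of -1.52 (limma adjusted *P* = 0.000341). TAS1440 alone gave 2.25, 2.57 and 2.97, and the combination differed from it by a log2 fold change of -0.35 that did not pass (limma adjusted *P* = 0.247). *HES2* moved the other way, from 0.23, 0.14 and 0.14 to 1.92, 1.67 and 1.89 (log2 fold change 1.66, limma adjusted *P* = 4.07e-05). *HES4*, which also carries the core, had a log2 fold change of -0.41 against DMSO (limma adjusted *P* = 0.168) and of -1.07 against TAS1440 alone (limma adjusted *P* = 0.000825). In all, 9 of 11 targets and feedback genes of Notch were tested, of which 1 rose and 2 fell against DMSO, with a median of -0.41, where 5.62% of all genes rose and 3.4% fell.

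The ligand genes moved in both directions. *DLL4* fell from 5.49, 6.19 and 5.85 to 4.54, 3.75 and 3.91 (log2 fold change -1.77, limma adjusted *P* = 0.00463). *JAG1* went from 4.07, 3.78 and 3.57 to 2.92, 2.45 and 2.44 (log2 fold change -1.20, limma adjusted *P* = 0.00176), and it was 4.43, 4.20 and 4.17 with TAS1440 alone. *JAG2* went up from 4.54, 4.37 and 4.57 to 5.82, 5.62 and 5.48 (log2 fold change 1.15, limma adjusted *P* = 3.01e-05). *DLL3*, an inhibitory ligand and cell surface target in SCLC, changed from 4.89, 5.15 and 5.01 to 3.87, 3.90 and 4.19 (log2 fold change -1.03, limma adjusted *P* = 0.00449), with groups that do not overlap. The call for *DLL3* rests on the fold threshold, since the log2 fold change was -0.96, -0.97 and -0.99 without DMSO library 11, GSI library 16 or GSI library 17. With TAS1440 alone *DLL3* was at 2.34, 1.94 and 1.77, lower than with the combination by a log2 fold change of 1.97 (limma adjusted *P* = 1.89e-05). *DLL1* had a log2 fold change of 0.50 (limma adjusted *P* = 0.0639). Of 11 receptors and ligands, 8 were tested, 3 rose and 3 fell, with a median of 0.43, where 5.62% of all genes rose and 3.4% fell. The subunits of gamma-secretase and the sheddases *ADAM10* and *ADAM17* had 0 of 8 members called in either direction, where 9.02% of all genes were called. Their median was 0.05, and *APH1B* was lowest at -0.94 (limma adjusted *P* = 0.000316).

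**Figure D2:**
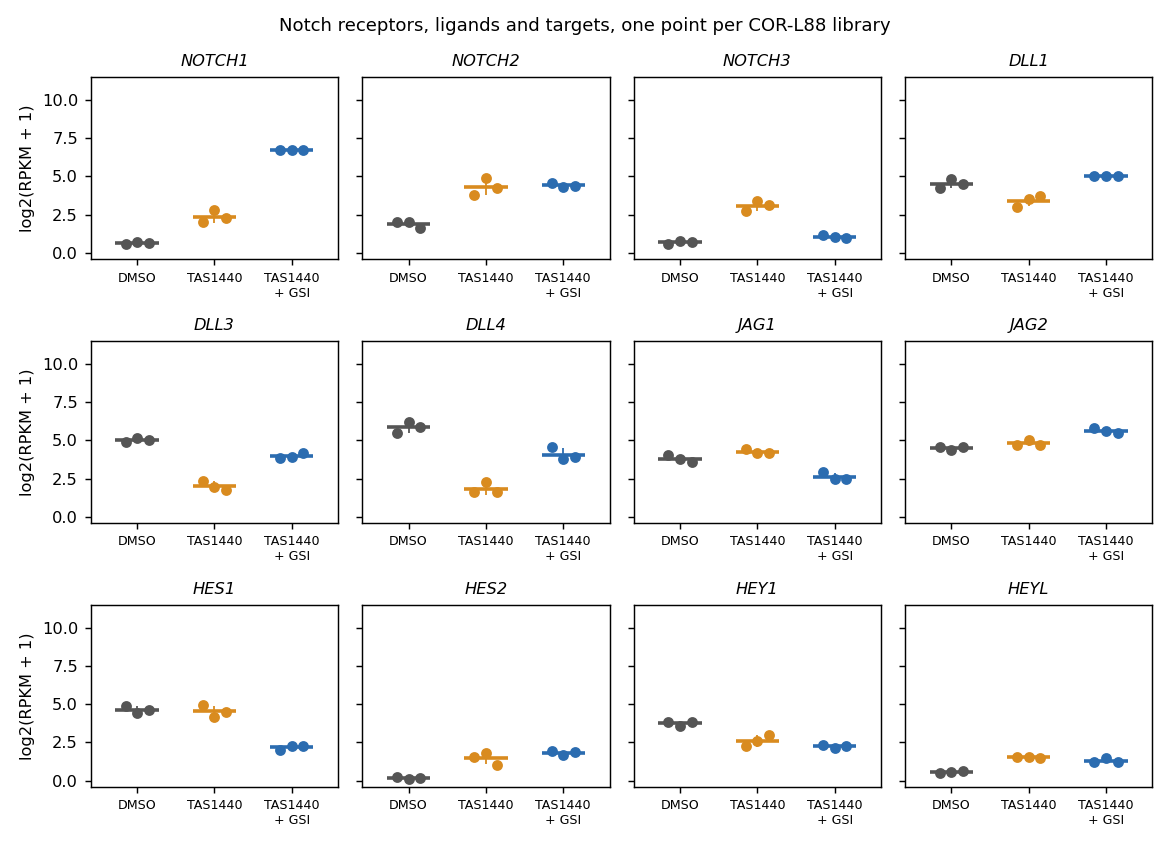
Log2(RPKM + 1) of 12 genes of the Notch pathway (vertical axis) in each of 3 libraries with DMSO, TAS1440 and TAS1440 plus GSI (horizontal axis); points are libraries, horizontal lines means and vertical lines SDs. *NOTCH1* is highest with the combination (6.71 to 6.75), while *HES1* is at about the same level with DMSO and TAS1440 and lower with the combination (1.97 to 2.30).

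Within the machinery of LSD1 itself, *REST* stood out. *REST* (chromosome 4, 57774042 to 57832974), the repressor of neuronal genes, was at 3.55, 3.57 and 3.52 with DMSO and at 6.31, 6.19 and 6.32 with TAS1440 plus GSI, a rise of 2.73 (standard error 0.23, limma adjusted *P* = 1.42e-06). TAS1440 alone gave 6.25, 6.57 and 6.48, and the difference between the treatments was -0.16 (limma adjusted *P* = 0.605). *INSM1*, a zinc-finger factor that recruits LSD1 and marks NE cells, fell from 6.71, 7.06 and 6.97 to 5.80, 5.66 and 5.80 (log2 fold change -1.16, limma adjusted *P* = 0.00333). It was far lower with TAS1440 alone, at 1.95, 2.16 and 2.26 (log2 fold change of the combination against TAS1440 alone 3.63, limma adjusted *P* = 5.84e-07). *KDM1A*, which encodes LSD1, had a log2 fold change of 0.08 against DMSO (95% CI, -0.23 to 0.40; limma adjusted *P* = 0.734) and was higher than with TAS1440 alone by 1.06 (limma adjusted *P* = 7.44e-05). Of 15 tested members of the LSD1 and CoREST list 1 rose (*REST*), 1 fell (*INSM1*) and the median was -0.13, where 5.62% of all genes rose and 3.4% fell.

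Genes of NE secretion and synaptic transmission formed the group with the most falls. Of 30 members 29 were tested, 21 fell, 0 rose and the median log2 fold change was -1.98, where 3.4% of all genes fell and their median was -0.01. *SYT4*, a synaptotagmin of dense-core vesicles, was at 9.67, 10.08 and 10.35 with DMSO and was listed at 0 in all 3 libraries with TAS1440 plus GSI, so no fold is given (limma adjusted *P* = 2.16e-13). *PCSK1*, the prohormone convertase, went from 7.79, 7.74 and 8.02 to 1.47, 1.49 and 1.10 (log2 fold change -6.50, limma adjusted *P* = 1.15e-10). *CHGA*, the granin used as an NE marker, went from 4.69, 4.60 and 4.84 to 0.52, 0.22 and 0.39 (log2 fold change -4.34, limma adjusted *P* = 6.38e-10). *SYP*, the synaptic vesicle protein used beside it in pathology, went from 5.00, 4.80 and 5.03 to 0.69, 0.66 and 0.53 (log2 fold change -4.32, limma adjusted *P* = 1.15e-10). In each of these the DMSO libraries lay far above all 3 libraries of the combination.

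Other members followed. The granins *SCG2* and *SCG3* fell by 4.89 and 4.30, *CHGB* fell by 3.71, the monoamine enzyme *DDC* fell by 3.53 and the SNARE gene *SNAP25* fell by 3.08 (limma adjusted *P* between 6.38e-10 and 9.32e-08). *SCG3* and *SYN1* (log2 fold change -1.67, limma adjusted *P* = 1.45e-07) are the list members whose windows hold the left part of the REST element. Levels of most of these genes with TAS1440 alone were close to those with the combination. *SYP* was at 0.46, 0.38 and 0.59, *DDC* at 0.01 in all 3 libraries, and *SCG2* at 0.56, 0.86 and 0.92. The direct comparison had 3 members higher and 4 lower with the combination than with TAS1440 alone, and a median of -0.07, where 4.32% of all genes were higher and 10.4% lower. The higher ones were *NCAM1* (log2 fold change 2.00, limma adjusted *P* = 3.28e-06), *GRP*, the gastrin-releasing peptide, at 3.13, 3.38 and 3.17 with the combination and 0.26, 0.47 and 0.49 with TAS1440 alone (log2 fold change 2.83, limma adjusted *P* = 4.35e-06), and *CACNA1A*, a calcium channel of presynaptic endings, at 4.76, 5.18 and 4.62 against 1.30, 1.05 and 0.90 (log2 fold change 3.77, limma adjusted *P* = 1.9e-05). The lower ones were *PCSK1*, *PCSK2*, *SYT1* and *RTN1*, of which *SYT1*, the calcium sensor of synaptic release, was at 8.31, 8.13 and 7.93 with the combination, 9.71, 9.91 and 9.97 with DMSO and 10.40, 10.52 and 10.73 with TAS1440 alone (log2 fold change against TAS1440 alone -2.43, limma adjusted *P* = 8.57e-07). *GRP* and *CACNA1A* were nonetheless lower than with DMSO by log2 fold changes of -3.32 and -5.77. The 8 members called in neither direction against DMSO included *UCHL1*, a neuronal ubiquitin hydrolase (log2 fold change -0.10; 95% CI, -0.43 to 0.23), and *NCAM1*, the adhesion molecule CD56 (log2 fold change -0.25; 95% CI, -0.63 to 0.13).

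Of 16 tested transcription factors of the NE lineage, 11 were not called against DMSO, 5 fell and 0 rose, with a median of -0.51, where 3.4% of all genes fell. *MYCL*, a MYC family gene often amplified in SCLC, was at 8.28, 8.39 and 8.66 with the combination against 7.68, 8.22 and 7.98 with DMSO (log2 fold change 0.48; 95% CI, -0.23 to 1.19) and 4.52, 5.39 and 5.41 with TAS1440 alone. *HES6*, a HES family gene of neural cells, was at 6.67, 6.86 and 6.96 against 7.14, 7.24 and 7.20 with DMSO (log2 fold change -0.36; 95% CI, -0.82 to 0.09) and 4.87, 4.94 and 4.54 with TAS1440 alone. For *MYCL* and *HES6* the combination exceeded TAS1440 alone by 3.33 and 2.04 (limma adjusted *P* = 6.29e-06 and 7.68e-06).

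The regulators that did fall were *ST18*, *FOXA2*, *SOX2*, *ISL1* and *INSM1*. *ST18*, a zinc-finger factor of the MYT1 family, went from 5.93, 6.23 and 5.86 to 1.01, 0.79 and 0.75 (log2 fold change -5.16, limma adjusted *P* = 2.61e-10). *FOXA2*, a forkhead factor of foregut endoderm, went from 4.73, 5.02 and 4.72 to 1.48, 1.52 and 1.45 (log2 fold change -3.34, limma adjusted *P* = 9.52e-09), and *SOX2* from 7.31, 7.12 and 7.15 to 5.37, 5.35 and 5.51 (log2 fold change -1.79, limma adjusted *P* = 2.37e-06). *FOXA2* and *SOX2* were also low with TAS1440 alone, at 2.03 to 2.32 and 4.59 to 5.41. For *ISL1* the log2 fold change was -1.56 (limma adjusted *P* = 0.0114), and -1.38 with an adjusted *P* of 0.0511 by limma without DMSO library 12. *NEUROD1* had a log2 fold change of -0.25 (95% CI, -0.79 to 0.28). Against TAS1440 alone, 6 of the 16 regulators were higher with the combination and 1 (*ISL1*) was lower, with a median of 0.74, where 4.32% of all genes were higher and 10.4% lower.

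**Figure D3:**
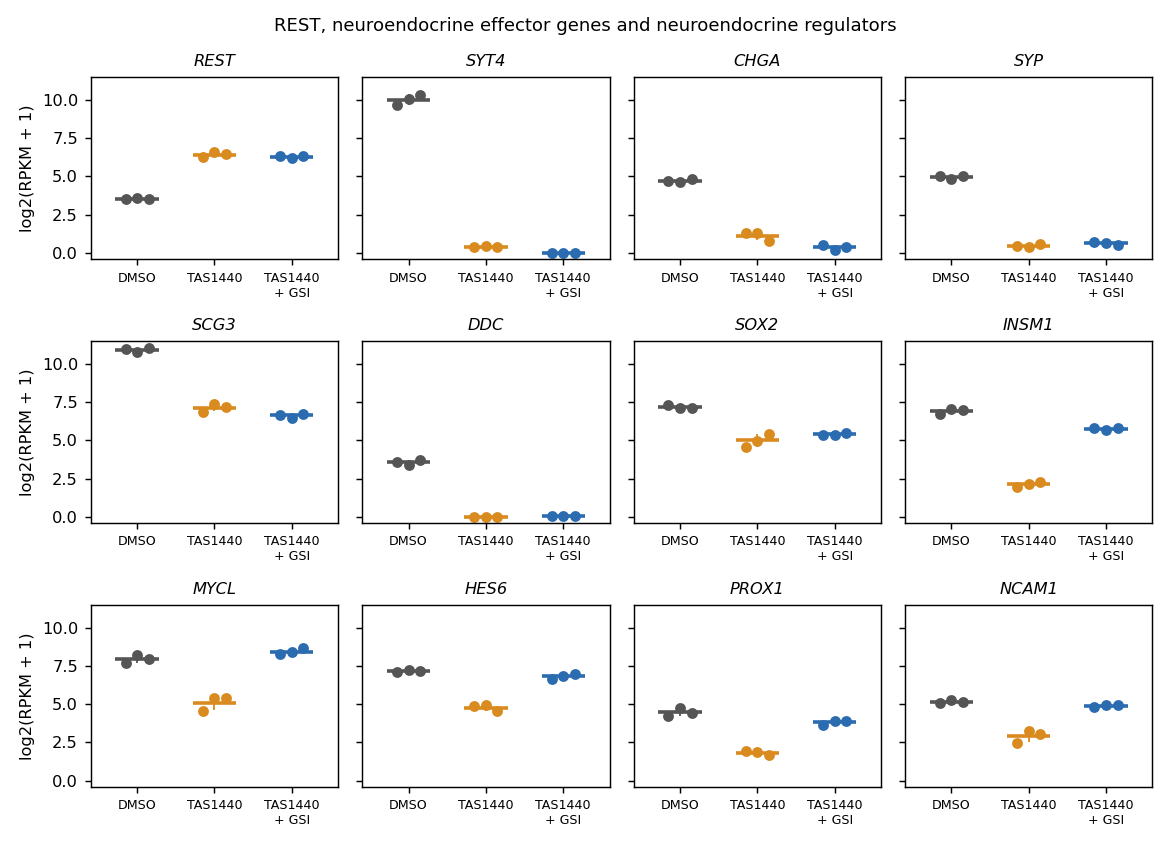
Log2(RPKM + 1) (vertical axis) of *REST*, 5 effector genes, and *SOX2*, *INSM1*, *MYCL*, *HES6*, *PROX1* and *NCAM1* in each of 3 libraries per treatment (horizontal axis); points are libraries, horizontal lines means and vertical lines SDs. *REST* is at 6.19 to 6.57 under both treatments, whereas *INSM1* is at 5.66 to 5.80 with the combination and 1.95 to 2.26 with TAS1440 alone.

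The 14 largest rises against DMSO were taken from 441 genes that rose without overlap of the groups and reached a mean of 3 (46.2% of all tested genes had groups that do not overlap). *BEGAIN* (chromosome 14, 101003484 to 101053754), which encodes a protein of postsynaptic scaffolds, was highest in rank. It went from 0.59, 0.81 and 0.60 to 6.86, 6.80 and 6.58 (log2 fold change 6.08, limma adjusted *P* = 5.15e-09), and was at 3.10, 4.54 and 4.10 with TAS1440 alone. *MUC4*, a membrane mucin, went from 1.50, 1.72 and 1.56 to 7.71, 7.36 and 7.44 (log2 fold change 5.91, limma adjusted *P* = 9.98e-06). *NPPC*, the C-type natriuretic peptide, rose by 5.41, *KRT15*, a basal keratin, by 5.19, and *LCN10*, a lipocalin, by 5.18 (limma adjusted *P* = 7.5e-05, 9.44e-07 and 3.99e-07). The adhesion receptor *ADGRB1*, listed under its older name *BAI1*, rose by 4.75, *ARHGAP6* by 4.73 and *LRG1* by 4.72. *RXRA*, the retinoid X receptor, rose by 4.53, *CYP4B1*, a cytochrome P450 of lung, by 4.47 and *PLIN5*, a lipid droplet coat protein, by 4.44. *VIM* and *NOTCH1* were also among the 14.

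Several of these were higher with the combination than with TAS1440 alone. *LCN10* was at 8.39, 8.03 and 7.84 with the combination, 2.88, 3.30 and 2.95 with TAS1440 alone and 3.04, 3.19 and 2.50 with DMSO, so TAS1440 alone overlapped with DMSO. *PLIN5* had the same arrangement, with 4.74, 5.39 and 4.87 against 0.53, 0.95 and 0.62 with TAS1440 alone and 0.42, 0.76 and 0.52 with DMSO. The combination exceeded TAS1440 alone for *LCN10* by 5.04, for *MUC4* by 4.80, for *PLIN5* by 4.30 and for *BAI1* by 4.23 (limma adjusted *P* = 1.11e-06, 4.26e-05, 1.72e-07 and 2.31e-07). *RXRA* and *CYP4B1* were not called between the treatments, with log2 fold changes of -1.20 and -1.15 (limma adjusted *P* = 0.0741 and 0.0819). For both genes, every library with the combination was nonetheless lower than every library with TAS1440 alone. *RXRA* was at 7.78, 7.39 and 7.62 with the combination against 7.87, 9.11 and 9.40 with TAS1440 alone. *CYP4B1* was at 6.65, 6.74 and 6.21 against 7.12, 8.23 and 7.70.

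The 14 largest falls were taken from 287 genes by the same rule. Beside *SYT4*, *PCSK1*, *CACNA1A*, *ST18* and *SCG2* they were *CHRNB2*, a nicotinic receptor subunit (log2 fold change -5.69), *UNC13A*, which primes synaptic vesicles (-5.37), *PEX5L* (-5.29), the calcium sensor *SCGN* (-5.19), *NELL1* (-4.99), the sphingomyelinase gene *SMPD3* (-4.98), *SEZ6L* (-4.92), *XKR7* (-4.88) and *CER1*, a secreted antagonist of BMP and Nodal (-4.60). The limma adjusted *P* values of these 9 genes ran from 1.87e-11 to 1.7e-05. *UNC13A*, whose window holds the left part of the REST element in reverse, was at 6.17, 6.07 and 5.94 with DMSO, 0.63, 0.76 and 0.70 with the combination and 1.28, 1.09 and 0.87 with TAS1440 alone. *PCSK1* and *CACNA1A* were the members of the 14 called between the treatments, *PCSK1* lower with the combination (log2 fold change -1.85, limma adjusted *P* = 1.02e-05) and *CACNA1A* higher.

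**Figure D4:**
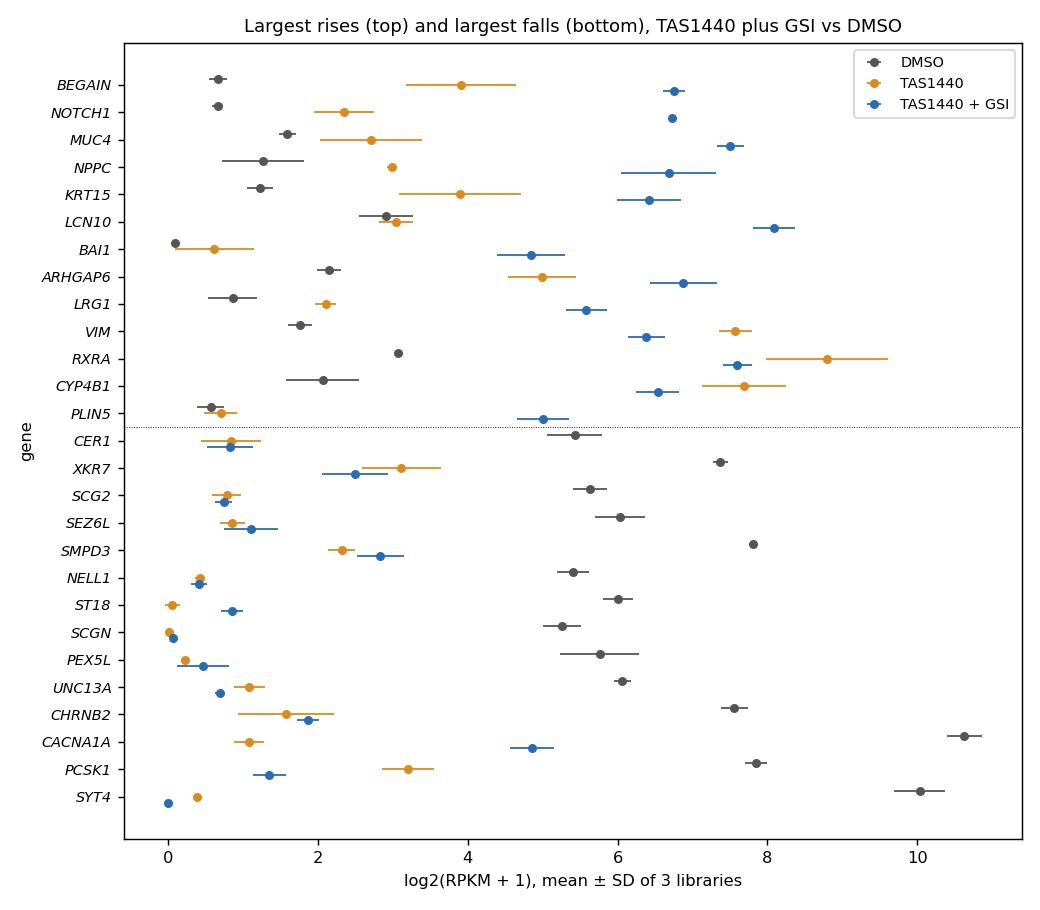
Mean log2(RPKM + 1) with SD over 3 libraries (horizontal axis) of genes named among the 14 largest rises and of the 14 genes with the largest falls (vertical axis) with DMSO, TAS1440 alone and TAS1440 plus GSI. Among the rises the mean of TAS1440 alone is below that of the combination apart from *VIM*, *RXRA* and *CYP4B1*, and among the falls both treatments sit far below DMSO.

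Markers of non-NE cells rose against DMSO but less far than with TAS1440 alone. All 24 list members were tested, 16 rose, 0 fell and the median was 1.43, where 5.62% of all genes rose. *YAP1*, the Hippo effector that NE SCLC lacks, went from 1.36, 1.00 and 0.86 to 4.98, 4.85 and 4.75 (log2 fold change 3.78, limma adjusted *P* = 6.83e-10), against 6.20, 6.24 and 6.20 with TAS1440 alone. Its targets *CCN1* and *CCN2*, listed as *CYR61* and *CTGF*, rose by 2.02 and 2.54 (limma adjusted *P* = 6.61e-05 and 0.000153). *EPHA2*, a receptor tyrosine kinase, rose from 3.44, 4.91 and 3.10 to 6.49, 6.97 and 6.36 (log2 fold change 2.79, limma adjusted *P* = 0.00143), and *EGFR* from 0.61, 0.64 and 0.53 to 2.04, 2.03 and 2.16 (log2 fold change 1.48, limma adjusted *P* = 1.51e-06). *ANXA1* was at 0.29, 0.00 and 0.19 with DMSO and 0.05, 0.27 and 0.20 with the combination, overlapping, and at 4.98, 4.15 and 4.32 with TAS1440 alone. In the direct comparison 22 of the 24 were lower with the combination than with TAS1440 alone and 0 higher, with a median of -2.16, where 10.4% of all genes were lower. *ANXA1*, *CD44* and *LAMB3*, which are among the 22, would not have passed the filter without the libraries of TAS1440 alone. Their place in this count therefore follows in part from the filter. The calls for *CCND1* and *MYOF* against DMSO ended without GSI library 16, with log2 fold changes of 0.98 and 1.20 (limma adjusted *P* = 0.00905 and 0.0518).

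Mesenchymal genes gave a similar picture with fewer calls, in a list that also holds the epithelial genes *CDH1* and *EPCAM*. Of 35 members 26 were tested, 8 rose, 0 fell and the median was 0.70, where 5.62% of all genes rose. *VIM* (chromosome 10, 17270240 to 17279592), the intermediate filament of mesenchymal cells, went from 1.73, 1.62 and 1.93 to 6.67, 6.24 and 6.24 (log2 fold change 4.62, limma adjusted *P* = 5.17e-09). *THBS1*, a matrix glycoprotein, went from 4.68, 3.87 and 3.68 to 6.85, 7.47 and 6.83 (log2 fold change 2.97, limma adjusted *P* = 8.52e-05). The basement membrane collagens *COL4A1* and *COL4A2* rose by 2.17 and 2.93, and *FN1*, fibronectin, by 1.71 (limma adjusted *P* = 1.11e-06, 1.71e-06 and 0.00114). The epithelial cadherin *CDH1* had a log2 fold change of 0.14 against DMSO (95% CI, -0.16 to 0.44), and *SNAI1* of -0.09 (limma adjusted *P* = 0.828). With TAS1440 alone *CDH1* was at 6.53, 6.79 and 6.63, above DMSO at 5.28, 4.98 and 5.28. Against TAS1440 alone its log2 fold change was -1.33 (limma adjusted *P* = 8.55e-06). *AXL* was below the filter and was not tested. The call for *MYL9* ended without DMSO library 11 or GSI library 16, with log2 fold changes of 1.68 and 1.53 (limma adjusted *P* = 0.0519 and 0.0523). Against TAS1440 alone 14 of the 26 were lower, 1 (*SNAI1*) was higher and the median was -1.16, where 10.4% of all genes were lower and 4.32% higher. The 14 include the epithelial gene *CDH1*. They also include *ACTA2* and *CD44*, which would not have passed the filter without the libraries of TAS1440 alone.

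Of 15 tested genes of MHC class I presentation 2 rose, *PSMB8* and *PSMB9*, which encode immunoproteasome subunits, and 0 fell, with a median of 0.48, where 5.62% of all genes rose. *PSMB9* was at 1.43, 0.56 and 0.41 with DMSO and 3.46, 2.56 and 2.15 with the combination (log2 fold change 1.93, limma adjusted *P* = 0.0132). Both calls ended without GSI library 16, with log2 fold changes of 0.92 and 1.56 (limma adjusted *P* = 0.0346 and 0.0656). Without DMSO library 12 they ended too, with log2 fold changes of 0.95 and 1.73, and that of *PSMB8* also ended without DMSO library 11, at 0.88. *HLA-B*, which shares reads with its close relatives, was at 1.42, 0.69 and 1.14 with DMSO, 3.00, 1.56 and 1.85 with the combination and 7.36, 7.55 and 7.65 with TAS1440 alone. Its log2 fold change against DMSO was 1.06 (95% CI, -0.15 to 2.26; limma adjusted *P* = 0.2). *B2M*, the light chain of MHC class I, had a log2 fold change of 0.70 (limma adjusted *P* = 0.111), which became a call without DMSO library 10 (log2 fold change 1.01, limma adjusted *P* = 0.0236). Against TAS1440 alone 11 of the 15 were lower with the combination and 0 higher, with a median of -1.35, where 10.4% of all genes were lower. Of 10 MHC class II genes, 2 passed the filter and neither was called, where 9.02% of all genes were called against DMSO.

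*STING1*, listed as *TMEM173*, the adaptor of cytosolic DNA sensing, was at 0.24, 0.41 and 0.20 with DMSO, 0.86, 0.78 and 0.86 with the combination and 2.54, 2.04 and 2.03 with TAS1440 alone. The groups did not overlap, and the log2 fold change of 0.55 (95% CI, 0.25 to 0.85; limma adjusted *P* = 0.0109) was under the fold threshold. It passed that threshold with 0.1 in place of 1 added to RPKM, at 1.50. Against TAS1440 alone *STING1* was lower by a log2 fold change of -1.37 (limma adjusted *P* = 7.46e-06). Of 12 tested sensing genes 0 were called against DMSO at the thresholds and the median was 0.22, where 9.02% of all genes were called. By the direct comparison 4 of them were lower with the combination than with TAS1440 alone, where 10.4% of all genes were lower.

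Interferon-stimulated genes had 6 of 31 tested members called higher, 0 lower and a median of 0.48, against 5.62% higher among all genes. They were *BST2*, *IFITM2*, *IFITM3*, *DDX60*, *GBP1* and *GBP3*. *BST2*, a protein that tethers virus to cells, was at 2.45, 0.00 and 0.00 with DMSO and 5.13, 4.66 and 5.60 with the combination (log2 fold change 4.31, limma adjusted *P* = 0.000538), with library 10 apart from the other DMSO libraries. *DDX60*, a helicase, went from 2.27, 2.62 and 2.54 to 3.77, 4.10 and 4.04 (log2 fold change 1.49, limma adjusted *P* = 0.00352). *IFITM2* was listed at 0 with DMSO and was at 2.42, 2.11 and 1.63 with the combination, and reads may be shared between *IFITM2* and *IFITM3*, which are near-identical. The call for *GBP1* ended without DMSO library 11 or GSI library 17 (log2 fold changes of 1.10 and 0.96) and that for *GBP3* without GSI library 16 (1.03). *XAF1*, an interferon-induced gene, was listed at 0 in all libraries with DMSO and with the combination, and was at 4.83, 5.37 and 5.44 with TAS1440 alone. *ISG15* had a log2 fold change of -0.05 (limma adjusted *P* = 0.908). The direct comparison had 24 of the 31 lower with the combination than with TAS1440 alone, 0 higher and a median of -1.55, where 10.4% of all genes were lower. *XAF1*, for example, passed the filter only through the libraries of TAS1440 alone, so its place in this count was set by the filter.

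Of the chemokine and cytokine list, 19 genes were in the table, 5 were tested and 2 rose. The median was 0.76, and 5.62% of all genes rose. *CSF1*, the growth factor of macrophages, went from 1.43, 1.21 and 0.95 to 4.82, 4.86 and 4.79 (log2 fold change 3.62, limma adjusted *P* = 1.25e-07). *IL32* went from 0.76, 0.00 and 0.77 to 3.77, 2.01 and 2.36 (log2 fold change 2.20, limma adjusted *P* = 0.0077). *CXCL10* was at 0.12 in 1 library with the combination and listed at 0 in the other two and with DMSO, and was not tested. All 5 tested genes were lower with the combination than with TAS1440 alone, with a median of -1.79, where 10.4% of all genes were lower.

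TGF-β and BMP genes had 7 of 17 tested members higher, 0 lower and a median of 0.84, where 5.62% of all genes were higher. *SMAD6*, an inhibitory SMAD, went from 2.44, 1.35 and 1.68 to 5.97, 5.49 and 5.37 (log2 fold change 3.79, limma adjusted *P* = 3.04e-07). The BMP targets *ID1* and *ID3* rose by 1.97 and 2.51 (limma adjusted *P* = 0.00735 and 0.00105), with *ID3* at 5.39, 3.57 and 4.36 with DMSO and 7.43, 6.82 and 6.58 with the combination. *TGFB1*, *BMP4* and *LTBP2* rose by 1.32, 1.41 and 1.34, and *TGFBR3* rose by 1.02, a call that ended without GSI library 17 (0.98). *MYC* rose from 1.95, 1.91 and 1.72 to 3.06, 3.54 and 3.30 (log2 fold change 1.44, limma adjusted *P* = 0.00489), and was at 5.12, 4.93 and 5.00 with TAS1440 alone. Of 24 cell cycle genes 0 rose and 1 fell, with a median of -0.30, where 5.62% of all genes rose and 3.4% fell. That gene, *RRM2*, a ribonucleotide reductase subunit, had a log2 fold change of -1.05 (limma adjusted *P* = 0.0112), and of -0.83 with an adjusted *P* of 0.0538 by limma without DMSO library 10. *MKI67*, the proliferation marker, had a log2 fold change of -0.46 (limma adjusted *P* = 0.236). Among markers of other cell types 1 of 6 tested genes rose, where 5.62% of all genes rose. This was *POU2F3* of tuft-like SCLC, from 0.41, 0.80 and 0.46 to 2.02, 2.11 and 2.08 (log2 fold change 1.51, limma adjusted *P* = 2.24e-06).

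**Figure D5:**
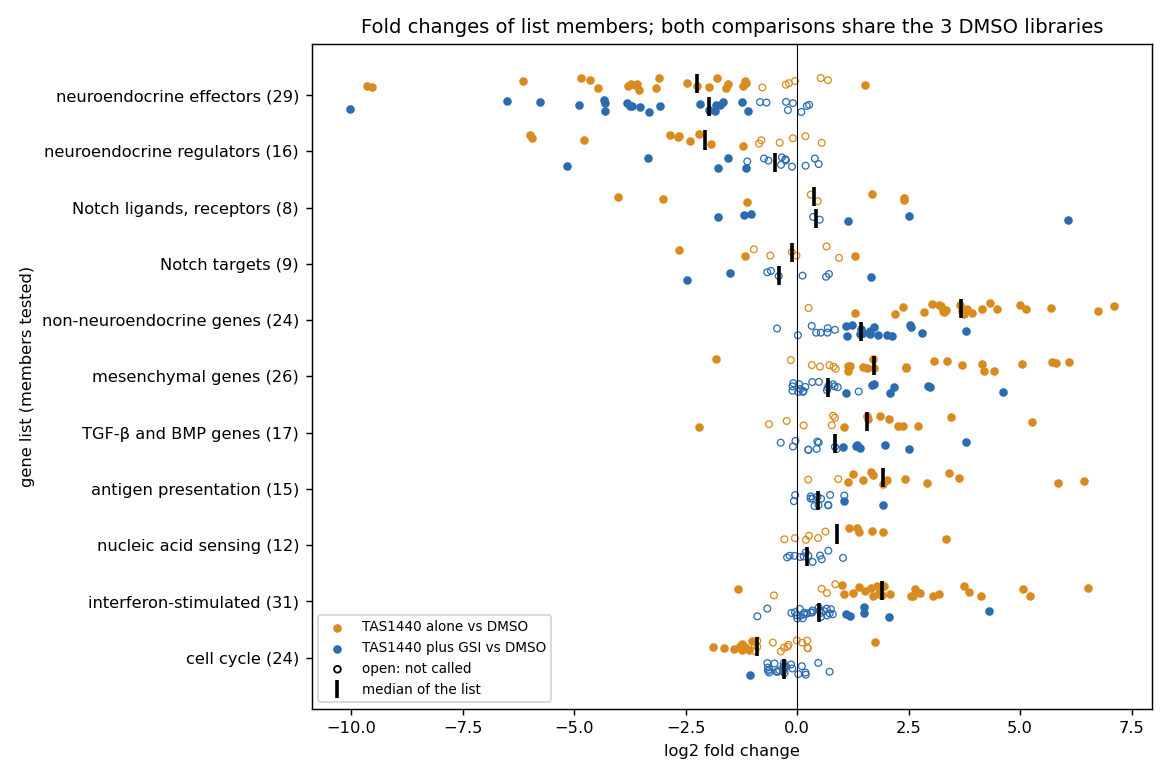
Log2 fold changes (horizontal axis) of the tested members of 11 gene lists (vertical axis, number tested in parentheses) for TAS1440 alone against DMSO in orange and TAS1440 plus GSI against DMSO in blue; filled points are called genes, open points are not, and black bars are list medians. Both comparisons use the same 3 DMSO libraries. The medians lie at -1.98 (combination) and -2.25 (TAS1440 alone) for NE effectors but at -0.51 and -2.06 for NE regulators, and at 0.48 and 1.90 for interferon-stimulated genes.

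The genes that set TAS1440 plus GSI furthest apart from TAS1440 alone were chosen by the same rule with 6 in each direction. Among the largest differences upward were *RNF186*, *DBH*, *LCN10*, *MUC4* and *ENTPD2*. *RNF186*, a ubiquitin ligase, was at 6.89, 7.11 and 7.19 with the combination, 1.79, 1.89 and 1.50 with TAS1440 alone and 6.93, 7.28 and 7.41 with DMSO. It differed from TAS1440 alone by 5.34 (limma adjusted *P* = 2.09e-07) and from DMSO by -0.14 (95% CI, -0.83 to 0.55). *DBH*, which makes noradrenaline, was at 5.75, 5.92 and 5.85 with the combination, 0.00, 1.28 and 0.41 with TAS1440 alone and 6.82, 6.95 and 6.96 with DMSO. Its call against DMSO (log2 fold change -1.07, limma adjusted *P* = 0.0372) ended when any 1 of the 6 libraries was left out (log2 fold changes of -1.12 to -1.02, adjusted *P* 0.0697 to 0.102 by limma). *ENTPD2*, an ectonucleotidase, was above both, at 7.15, 7.08 and 6.76 against 5.71, 5.98 and 5.82 with DMSO and 2.07, 3.01 and 2.48 with TAS1440 alone.

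The largest differences downward were in *TGFBI*, *HLA-B*, *COL17A1*, *XAF1*, *CFI* and *GPX3*. *TGFBI*, a matrix protein induced by TGF-β, was at 3.22, 2.14 and 1.88 with the combination, overlapping with 1.77, 2.74 and 3.05 with DMSO, and at 7.97, 8.93 and 8.95 with TAS1440 alone (log2 fold change of the combination against TAS1440 alone -6.20, limma adjusted *P* = 6.28e-06). *COL17A1*, a collagen of hemidesmosomes, was at 2.87, 2.04 and 2.06 with the combination, 0.42, 0.32 and 0.60 with DMSO and 7.38, 7.58 and 8.13 with TAS1440 alone. Its rise of 1.88 against DMSO (limma adjusted *P* = 0.0151) was 1.61 with an adjusted *P* of 0.0681 by limma without GSI library 16. The complement regulator *CFI* was listed at 0 with DMSO and was at 1.55, 0.23 and 0.95 with the combination and 5.87, 5.91 and 6.31 with TAS1440 alone. *GPX3*, a secreted peroxidase, had 3.64, 2.73 and 2.52 with the combination and 7.28, 8.38 and 8.14 with TAS1440 alone, and did not pass against DMSO (limma adjusted *P* = 0.125). It became a call against DMSO with only the 2 compared groups in the model.

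The *STING1* KO cells give a comparison of TAS1440 with DMSO that shares no library with the one above. It had 1346 genes higher (10.2%) and 760 lower (5.79%). Of the 738 genes higher with TAS1440 plus GSI, 558 were higher there too, which is 75.6% of the former and 41.5% of the latter, and 6 were lower. Of the 447 lower genes, 346 were lower there, 77.4% and 45.5% of each list, and 4 were higher. *SYT4* went from 11.11, 10.99 and 10.98 to 1.15, 1.25 and 1.79 in the KO cells, and *REST* from 3.37, 4.20 and 2.89 to 6.11, 6.25 and 6.25. *NOTCH1* went from 1.06, 0.97 and 0.96 to 4.58, 2.82 and 4.93, and *HES1* fell by 1.86 there (limma adjusted *P* = 3.51e-05). *LCN10* was at 2.70, 3.76 and 3.36 with DMSO and 6.20, 4.54 and 6.11 with TAS1440 in these cells. *TMEM173* RNA was at 0.12, 0.36 and 0.10 with DMSO and 1.16, 1.09 and 0.96 with TAS1440 in the libraries labelled KO, and a transcript level does not show whether the protein is lost. For the protein, the paper shows an immunoblot of its COR-L88 KO clones.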

How the data were processed

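The authors sequenced polyA RNA in pairs (Illumina Stranded mRNA Prep, NovaSeq). They trimmed reads with Cutadapt, aligned them with STAR to hg19, quantified genes with RSEM, scaled libraries by TMM and formed RPKM. The deposited values are log2(RPKM + 1) for 20516 gene symbols, and versions, annotation and gene lengths are not given in the sources used here. Some genes carry very high RPKM (*GMNN* had a mean of 28900 with DMSO), so levels were compared within a gene only.

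limma 3.58.1 in R 4.3.3 compared groups on 13134 genes, those that reached 1 on the log2 scale in 3 or more of 15 COR-L88 libraries. A gene could pass through the libraries of 1 group alone, and its difference from the other groups then follows in part from the filter. The model held 1 mean for each of 5 groups and moderated variances with a trend. Tests were two-sided, with Benjamini-Hochberg adjustment across the 13134 genes. The model was tested on simulated data. Lists (17) were described by counts and medians, with no set test, and were chosen, as were the comparisons, with earlier results of these data known. Genes were named when called, without overlap of the groups and with a mean of at least 3 in the higher group: the 14 largest rises and falls, and 6 each against TAS1440 alone. List members and genes the study names were added, and some named genes are not reported here. Of the tested genes, 9845 had a RefSeq window of 250 bases before and 50 bases from the gene start. Alternatives were no filter, 0.1 in place of 1 added to RPKM, quantile normalization, median-centred libraries, 2 groups in the model, no variance trend, and leaving out each library. The KP1 table was not used. Genes of the lists with no row in the table were not analysed here.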

Additional observations from a re-analysis of the deposited data

How the results depend on the processing

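Alternatives were run for TAS1440 plus GSI against DMSO and against TAS1440 alone, and these 4 counts of called genes kept within 1.5 times of those reported, apart from genes higher with TAS1440 plus GSI than with TAS1440 alone, which numbered 853 in place of 568 with 0.1 in place of 1 added to RPKM. With each library left out in turn, genes higher than with DMSO numbered 662 to 756 and lower genes 415 to 459, and against TAS1440 alone 516 to 657 were higher and 1284 to 1436 lower. The share of called genes that were higher than with DMSO was 62.3%, and 59% after quantile normalization. No called gene of the lists or named by rule changed direction, and other genes were not followed one by one. *DBH* and *COL17A1*, 2 of the 31 called genes with the largest differences, lost their call against DMSO under some alternative, as did 13 of 73 other called genes of the lists, and 28 of 170 uncalled genes gained one. Most of those gains came with the smaller pseudocount, which stretches genes near 0: under it 13 mesenchymal and 10 interferon-stimulated genes rose against DMSO, in place of 8 and 6. No paired analysis was possible because the libraries are numbered in series, and the labels do not say which libraries of different groups belong together. Depth is known only in relative terms, so values near 0 carry an error that could not be stated.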

Other observations

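*NOTCH1* and *LCN10*, both among the 14 largest rises, are 192 kb apart on chromosome 9 of GRCh37. The genes around them were looked up after their values had been seen, so the following is a description without a test. From *NOTCH1* (139388885 to 139440500) to *LCN15* (139654086 to 139660707), 8 genes were tested. Of these, 7 rose with TAS1440 plus GSI against DMSO, where 5.62% of all genes rose. The same 7 were higher with the combination than with TAS1440 alone, where 4.32% of all genes were higher. *LCN6* and *LCN8* would not have passed the filter without the libraries of the combination. Their place in both counts therefore follows in part from the filter. Both ends of the stretch were set at genes that rose, so its contrast with the genes beyond them follows in part from that choice. Of 15 tested genes within about 200 kb to either side 0 rose and 0 fell against DMSO, with log2 fold changes of -0.23 to 0.59. Of all genes 5.62% rose and 3.4% fell. Against TAS1440 alone 1 of the 15, *C9orf163*, was higher with the combination (log2 fold change 1.11, limma adjusted *P* = 0.00051).

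*EGFL7*, a secreted factor of endothelium, was at 6.63, 6.23 and 6.31 with DMSO, 7.84, 8.64 and 7.90 with TAS1440 alone and 9.48, 9.48 and 9.37 with the combination. *AGPAT2*, an acyltransferase of phospholipid synthesis, was at 4.83, 4.52 and 4.84 with DMSO, 5.93, 6.00 and 5.66 with TAS1440 alone and 7.46, 7.29 and 7.02 with the combination. Both were therefore in the order DMSO, TAS1440 alone, combination, without overlap. None of the 4 lipocalin genes was called higher with TAS1440 alone than with DMSO. *LCN6* was at 0.00, 0.00 and 0.35 with DMSO, 0.00, 0.00 and 0.47 with TAS1440 alone and 2.83, 3.23 and 2.89 with the combination. *LCN15* was at 0.71, 0.93 and 1.09 with DMSO, 0.12, 0.34 and 0.28 with TAS1440 alone and 2.76, 3.12 and 3.19 with the combination. *LCN8* reached 1.23 to 1.63 with the combination and at most 0.24 in the DMSO libraries. The gene of the stretch that was not called, *SNHG7*, a noncoding RNA host gene, had a log2 fold change of 0.13 (limma adjusted *P* = 0.72). In *STING1* KO cells 4 of the 8 rose with TAS1440, where 10.2% of all genes rose.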
